A study of Arabidopsis thaliana with 16 samples.

Results

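The thalianol and marneral metabolic clusters of Arabidopsis thaliana are neighbourhoods on chromosome 5 in which the genes of one triterpene pathway lie side by side. Their genes were taken by TAIR10 locus identifier, 7 of the 37899 annotated nuclear genes. The thalianol cluster gave 4 genes, AT5G47980, AT5G47990 (CYP705A5), AT5G48000 (CYP708A2) and AT5G48010 (THAS1). The marneral cluster gave 3 genes, AT5G42580 (CYP705A12), AT5G42590 (CYP71A16) and AT5G42600 (MRN1). H3K27me3, the repressive histone mark laid down by Polycomb repressive complex 2, was profiled by ChIP-seq in seedlings 3 and 1 days after imbibition (DAI). The seedlings were of Atsdr4l-4 or of Atsdr4l-5, each a line with a short deletion in AtSDR4L in the Col-0 background, or of wild-type Col-0, with 2 libraries for each genotype and day and 12 in all. All were grown on medium with 1% sucrose, and Atsdr4l-5 was a bulk of backcrossed lines free of the Cas9 transgene. AtSDR4L is a co-repressor that the study places with VAL2, a B3-domain protein of the seed-to-seedling transition, and the mutants were profiled to ask how H3K27me3 depends on it.

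In each cluster an oxidosqualene cyclase folds oxidosqualene into a triterpene scaffold, and cytochrome P450 enzymes and other tailoring enzymes encoded beside it then modify that scaffold. Such plant clusters are known to be silenced together by H3K27me3 in tissues that do not make the compound, and both pathways are known mainly from roots. The mark was measured here in whole seedlings, so a smaller share of cells carrying it and less of it per cell cannot be told apart, and the peak lists hold no expression values against which the labelled tissue could be checked.

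For each library the deposited list gives broad peaks, each with 1 fold enrichment over the joined mock IgG control averaged over its whole length. The lists held 6474 to 7068 peaks on the nuclear chromosomes, which covered 24.9 to 28.2 Mb at 3 DAI and 21.3 to 25.3 Mb at 1 DAI. The lists carry no read counts, so depth per library is unknown. The labels give replicates of a group no separate source, so the p-values below measure the spread between these libraries, which may be technical.

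All 7 genes were covered by H3K27me3 peaks over 100% of their length in all 12 libraries, in both mutant alleles and in Col-0 and on both days. Whole coverage in all 12 libraries held for 10.1% of the protein-coding genes, and coverage of at least 50% for 16.3% of all annotated genes. The thalianol genes were AT5G47980 at chr5:19428888-19430517, an acyltransferase gene of the BAHD family, CYP705A5 at chr5:19434758-19436749, the thalian-diol desaturase, CYP708A2 at chr5:19444103-19447866, the thalianol hydroxylase, and THAS1 at chr5:19456837-19461706, the thalianol synthase that makes the scaffold. The marneral genes were CYP705A12 at chr5:17023502-17025361, a P450 gene, CYP71A16 at chr5:17031024-17033800, the marneral oxidase, and MRN1 at chr5:17053453-17058245, the marneral synthase. CYP708A2, CYP705A12 and CYP71A16 lie on the minus strand and the others on the plus strand. The noncoding RNA genes annotated between them were also covered over 100% in every library, AT5G07035 in the thalianol cluster and AT5G00580, AT5G06325 and AT5G06335 in the marneral cluster.

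**Figure D1:**
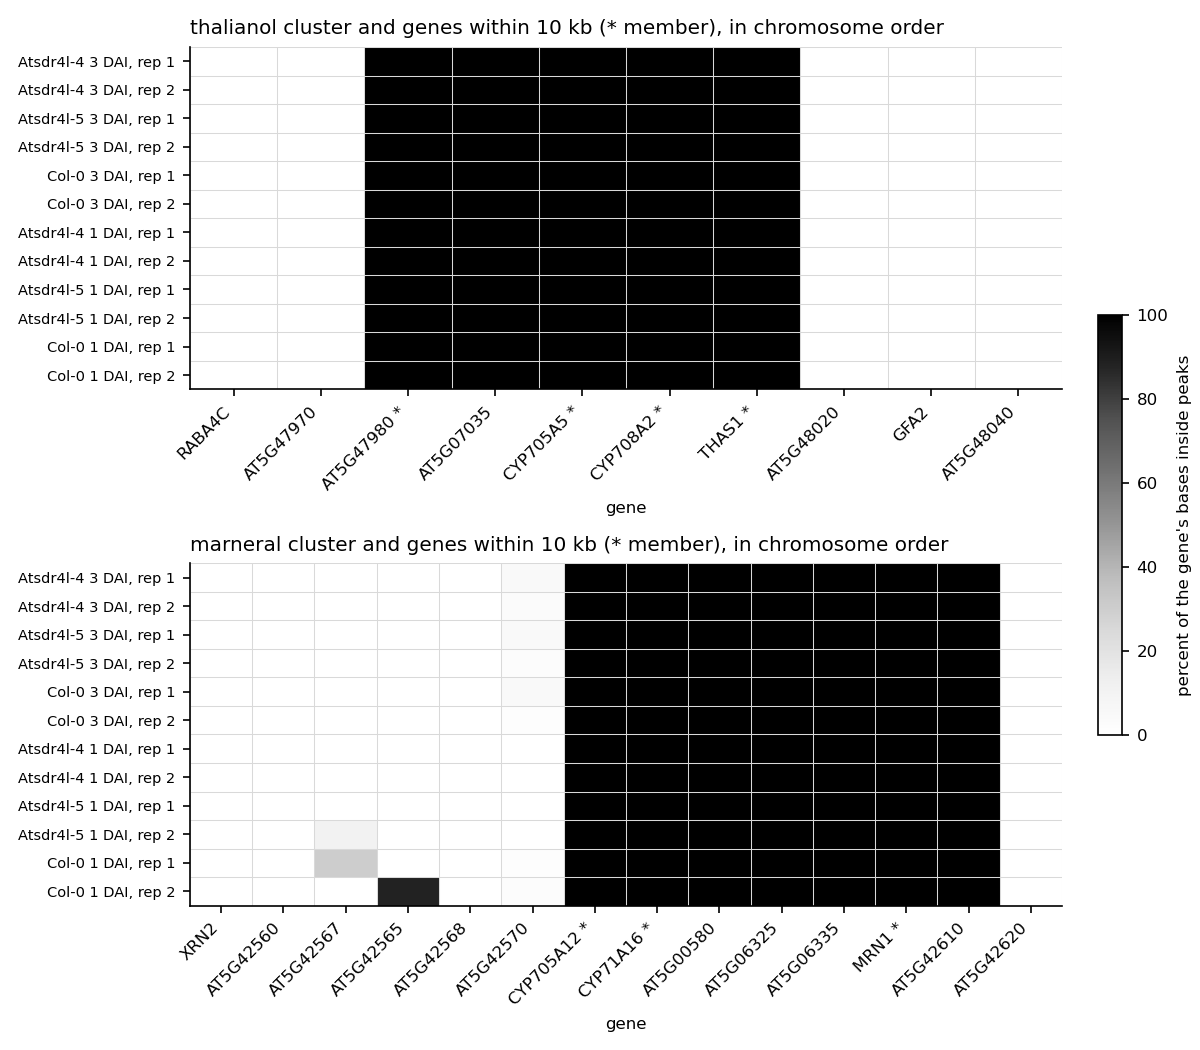
Percent of each gene's bases inside H3K27me3 peaks (grey scale, 0 to 100) for the members (starred), the genes between them and the genes within 10 kb, in chromosome order from left to right, with 1 row for each of the 12 libraries. The starred genes are at 100% in every library, as is AT5G42610 beside the marneral cluster, and the genes beside the thalianol cluster are at 0.

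The sequence upstream of the members is shown because the cyclase genes of both clusters, and no other member, hold an RY element, CATGCA, in the 200 bases before the annotated gene start. RY elements are bound by B3-domain proteins, the class to which VAL2 belongs. In the study, though, RY was a leading motif of regions preferred by VAL1, a homolog of VAL2. For regions preferred by VAL2 the study reported the G-box, CACGTG, as a leading motif. Capitals mark the RY element in the THAS1 window at chr5:19456637-19456836 and in the MRN1 window at chr5:17053253-17053452. The CYP705A12 window at chr5:17025362-17025561 is given on the minus strand and holds none of the motifs, and it is shown because this gene was the only member called between days after each library was centred on its median gene. All windows are from RefSeq TAIR10.1 and read 5′ to 3′ along the gene.
THAS1: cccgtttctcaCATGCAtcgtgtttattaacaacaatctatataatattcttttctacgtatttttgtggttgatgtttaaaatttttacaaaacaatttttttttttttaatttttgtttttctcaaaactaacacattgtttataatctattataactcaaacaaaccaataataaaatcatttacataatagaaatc
MRN1: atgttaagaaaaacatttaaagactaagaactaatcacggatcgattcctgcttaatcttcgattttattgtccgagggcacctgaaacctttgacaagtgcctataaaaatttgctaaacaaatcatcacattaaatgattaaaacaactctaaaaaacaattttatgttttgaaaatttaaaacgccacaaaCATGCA
CYP705A12: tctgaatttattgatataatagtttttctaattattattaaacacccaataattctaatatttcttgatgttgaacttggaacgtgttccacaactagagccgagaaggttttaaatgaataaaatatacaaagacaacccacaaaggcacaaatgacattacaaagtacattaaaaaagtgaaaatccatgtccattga

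The RY element began 189 bases before the THAS1 start and 6 bases before the MRN1 start. On both strands it was found in the windows of 2 of the 7 members, against 6.69% of 27443 protein-coding genes. GAGAGA was found in 1 of the 7, in CYP708A2, against 17.2% of protein-coding genes. CACGTG, the G-box, and AAACCCTA, the telobox, were found in 0 of the 7, against 5.64% and 3.72% of protein-coding genes. None of these motifs shares a stretch with another in these windows. A match is a run of letters, and binding was not measured here. The RY matches were picked for display from 4 motifs searched, and their number was not tested against the background.

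The called peaks ended between the thalianol genes and their nearest neighbours in all 12 libraries. A peak end is a called position, and how steeply the mark fell there was not measured. The domain, taken from the first to the last base of the peaks that touch the cluster, was 34.5 to 35.8 kb long over a gene span of 32.8 kb. It began 1160 to 2413 bp before AT5G47980 and ended 365 to 767 bp beyond THAS1. AT5G47970, a TIM barrel protein gene on one side, and AT5G48020, a 2-oxoglutarate-dependent oxygenase gene on the other, were covered over 0% in all 12 libraries, as were RABA4C, GFA2 and AT5G48040 farther out. The last covered base lay 42 to 444 bp short of AT5G48020 and the first lay 602 to 1855 bp beyond AT5G47970. AT5G47950, an acyltransferase gene 10230 bp before the cluster that was named only after its values were seen, had no peak in any library.

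The stretch in which the thalianol domain ended is shown because 10 of the 12 last covered bases fell within these 300 bases, at chr5:19462066-19462365 on the plus strand of TAIR10.1, between THAS1 and AT5G48020. Capitals mark the last covered base of each of these 10 libraries.
Right edge: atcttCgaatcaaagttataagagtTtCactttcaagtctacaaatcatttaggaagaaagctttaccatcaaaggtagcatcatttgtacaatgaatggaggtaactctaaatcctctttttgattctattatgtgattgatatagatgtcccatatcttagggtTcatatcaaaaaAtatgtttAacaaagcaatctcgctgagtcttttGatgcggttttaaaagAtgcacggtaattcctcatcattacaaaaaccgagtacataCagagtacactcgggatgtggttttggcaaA

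The SD of this edge was 124 bp over the 12 libraries, against 386 bp for the opposite edge. At 3 DAI it fell between positions 19462244 and 19462368, and at 1 DAI between 19462071 and 19462473, so the ranges of the days overlapped.

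The marneral domain was 41.7 to 43.4 kb long over a gene span of 34.7 kb, and it was lopsided. It began 461 to 852 bp before CYP705A12 but ran 6489 to 7853 bp beyond MRN1. AT5G42610, annotated as a calcium uniporter family gene, lay inside this extension and was covered over 100% in all 12 libraries. AT5G42620, a metalloendopeptidase gene, was covered over 0%, and the domain stopped 98 to 1462 bp short of it. On the other side the peak reached into AT5G42570, a B-cell receptor-associated 31-like gene, in 8 of 12 libraries, over at most 4.91% of its length. All 6 libraries at 3 DAI were among these 8, and at 1 DAI both were of Col-0. The first covered base ranged from 17022650 to 17022699 at 3 DAI and from 17022687 to 17023041 at 1 DAI. These ranges overlapped, and a link of this reach with day or genotype was not tested. XRN2, AT5G42560 and AT5G42568 had no coverage. Small separate peaks touched AT5G42567 in 2 libraries, over 10.9% and 30.3% of it, and AT5G42565 in 1 library, over 88.2%, all at 1 DAI.

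**Figure D2:**
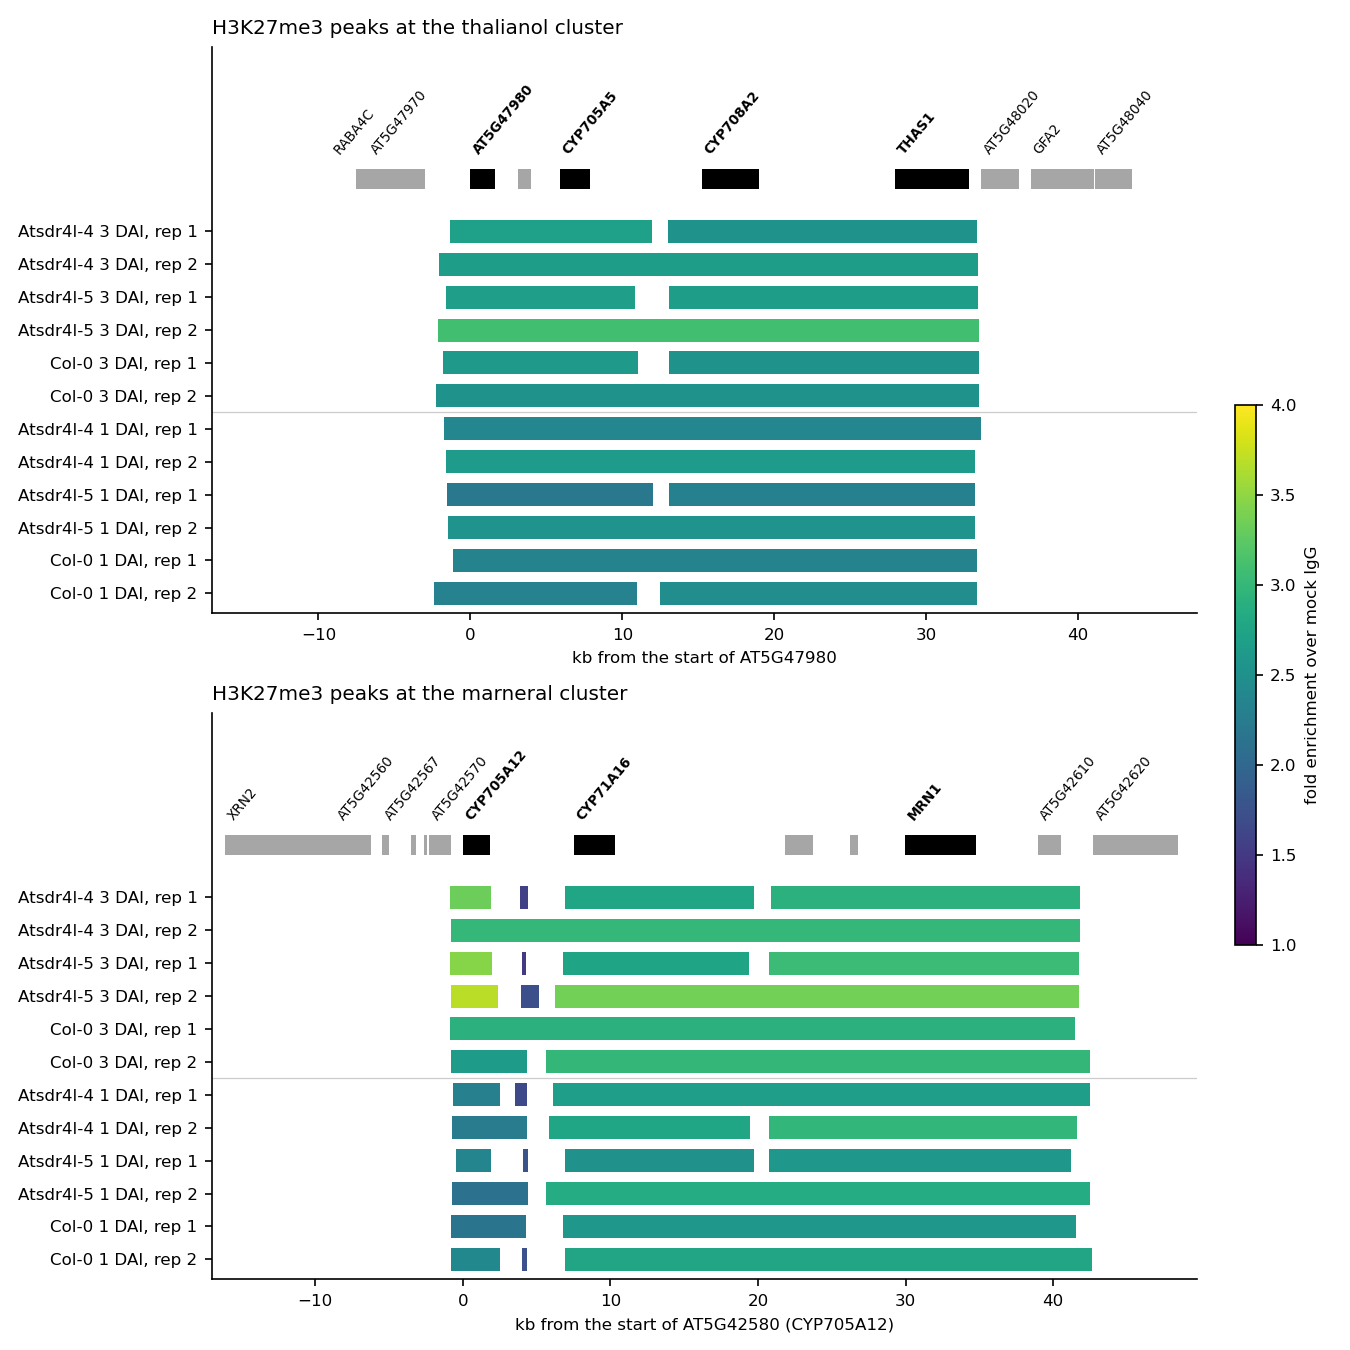
Peaks (bars, coloured by fold enrichment over mock IgG) along the thalianol cluster (top) and the marneral cluster (bottom), with 1 row per library and the x axis in kb from the start of the first member; black boxes are members, grey boxes other genes. The thalianol domain ends just past THAS1 in all libraries, the marneral domain runs on across AT5G42610, and CYP705A12 lies in a separate peak in 10 of 12 libraries.

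Within the domains the peaks broke at the same places in different libraries. The thalianol genes lay in 1 unbroken peak in 7 libraries and in 2 peaks in the other 5, 3 of them at 3 DAI and 2 at 1 DAI. The break always fell between CYP705A5 and CYP708A2 and was 1025 to 2238 bp wide. Its shared core was chr5:19440938-19441372. The marneral genes lay in 1 peak in 2 libraries, Atsdr4l-4 3 DAI replicate 2 and Col-0 3 DAI replicate 1, and in 2 to 4 peaks in the other 10. In all of these 10, 4 at 3 DAI and 6 at 1 DAI, a break between CYP705A12 and CYP71A16 held the core chr5:17028690-17029139. In 6 of them a second break lay closer to CYP705A12, with the core chr5:17025992-17027031. The last break, with the core chr5:17043216-17044214 between CYP71A16 and MRN1, was found in 4 of the 8 Atsdr4l libraries. It was found in 0 of the 4 Col-0 libraries, and a link of this break with genotype was not tested.

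No break crossed a member gene. The break cores had a GC content of 23.8% to 26.9%, against 31.9% over the thalianol span and 30.5% over the marneral span. In the last core 35.2% of the 50-base words occurred more than once in the nuclear genome, against 2.12% over the marneral span, and this share was 0 to 1.25% in the other 3 cores. The authors kept alignments with a mapping quality over 10, so repeated sequence gives fewer reads, and the part of repeats and base composition in the breaks was not tested. The smallest distance between neighbouring peaks anywhere in a library was 978 to 1119 bp, so a narrower dip would not have been written as a break.

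Neither the length covered nor the length of the domain differed detectably between days or between genotypes. The thalianol domain averaged 35297 ± 382 bp at 3 DAI and 34968.5 ± 488 bp at 1 DAI (SD, n = 6 each; exact two-sided permutation of the day labels within genotypes, p = 0.259). The marneral domain averaged 42680 ± 313 bp at 3 DAI and 42705 ± 659 bp at 1 DAI (SD, n = 6 each; exact permutation, p = 0.981). For Atsdr4l against Col-0 the thalianol domain averaged 35042 ± 380 bp (SD, n = 8) and 35314 ± 587 bp (SD, n = 4; exact two-sided permutation of genotype labels within days, p = 0.342). The marneral domain averaged 42616 ± 469 bp in Atsdr4l (SD, n = 8) and 42844 ± 574 bp in Col-0 (SD, n = 4; exact permutation, p = 0.547).

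The bases covered within the gene spans did not differ detectably either. The peaks covered 93.2% to 100% of the thalianol span and 82.9% to 100% of the marneral span, the missing part being the breaks. At 3 DAI 31937.5 ± 1044 bp of the thalianol span were covered, against 32397 ± 671 bp at 1 DAI (SD, n = 6 each; exact permutation, p = 0.444). Of the marneral span 32171 ± 2667 bp were covered at 3 DAI and 31594 ± 1527 bp at 1 DAI (SD, n = 6 each; exact permutation, p = 0.685). Coverage in Atsdr4l against Col-0 gave exact permutation p = 0.560 for the thalianol span and p = 0.342 for the marneral span (n = 8 and 4). After Benjamini-Hochberg adjustment over these 8 comparisons the smallest p was 0.747. The smallest p these designs allow is 0.00926 between days and 0.00444 between genotypes.

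The level of the mark is given as the fold enrichment of the peak over each gene. Because a peak carries a single fold, genes that share a peak share a value, and the 7 members gave 5 different series of 12 values. AT5G47980 and CYP705A5 shared a peak in all 12 libraries, as did CYP708A2 with THAS1, and in 7 libraries all 4 thalianol genes shared one. MRN1 shared its peak with AT5G42610 in all 12 libraries and with CYP71A16 in 8.

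THAS1 and CYP708A2, the synthase and hydroxylase of the thalianol pathway, had a fold of 2.51 and 2.66 in Atsdr4l-4 seedlings, 2.65 and 3.09 in Atsdr4l-5 seedlings and 2.51 and 2.51 in Col-0 at 3 DAI. At 1 DAI they had 2.37 and 2.64 in Atsdr4l-4 seedlings, 2.30 and 2.54 in Atsdr4l-5 seedlings and 2.34 and 2.47 in Col-0. The ranges of the days overlapped, and the values sat near the middle of all marked genes, at percentile 45.6 to 62.5 of the 6168 genes tested at 3 DAI and 54.5 to 61.4 at 1 DAI. AT5G47980 and CYP705A5, the acyltransferase and desaturase genes, had 2.69 and 2.66 in Atsdr4l-4 seedlings, 2.67 and 3.09 in Atsdr4l-5 seedlings and 2.62 and 2.51 in Col-0 at 3 DAI. At 1 DAI they had 2.37 and 2.64 in Atsdr4l-4 seedlings, 2.20 and 2.54 in Atsdr4l-5 seedlings and 2.34 and 2.32 in Col-0. These ranges overlapped too, and in both pairs the highest value came from Atsdr4l-5 3 DAI replicate 2, the library whose median fold over all tested genes was also the highest, 2.90 against 2.20 to 2.63 in the other 11.

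MRN1, the marneral synthase gene, had a fold of 2.91 and 3.00 in Atsdr4l-4 seedlings, 3.05 and 3.36 in Atsdr4l-5 seedlings and 2.92 and 2.99 in Col-0 at 3 DAI. At 1 DAI it had 2.68 and 2.97 in Atsdr4l-4 seedlings, 2.59 and 2.84 in Atsdr4l-5 seedlings and 2.60 and 2.77 in Col-0. It lay high among the marked genes in every library, at percentile 76.2 to 81.6 at 3 DAI and 75.4 to 84.0 at 1 DAI. CYP71A16, the oxidase gene, had 2.78 and 3.00 in Atsdr4l-4 seedlings, 2.75 and 3.36 in Atsdr4l-5 seedlings and 2.92 and 2.99 in Col-0 at 3 DAI. At 1 DAI it had 2.68 and 2.78 in Atsdr4l-4 seedlings, 2.50 and 2.84 in Atsdr4l-5 seedlings and 2.60 and 2.77 in Col-0. For both genes the ranges of the days overlapped.

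CYP705A12, the P450 gene at the edge of the marneral cluster, differed from the other members between days. It had a fold of 3.33 and 3.00 in Atsdr4l-4 seedlings, 3.45 and 3.69 in Atsdr4l-5 seedlings and 2.92 and 2.65 in Col-0 at 3 DAI. At 1 DAI it had 2.30 and 2.25 in Atsdr4l-4 seedlings, 2.36 and 2.14 in Atsdr4l-5 seedlings and 2.16 and 2.40 in Col-0. The lowest library at 3 DAI lay above the highest at 1 DAI, which was so for none of the other 6 members and for 24.5% of the tested genes. Its percentile among the marked genes was 60.5 to 92.5 at 3 DAI and 28.5 to 65.7 at 1 DAI. Relative to the library's median tested gene it stood at 1.06 to 1.31 at 3 DAI and at 0.891 to 1.07 at 1 DAI, ranges that overlapped through Col-0 3 DAI replicate 2, at 1.06, and Atsdr4l-5 1 DAI replicate 1, at 1.07.

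**Figure D3:**
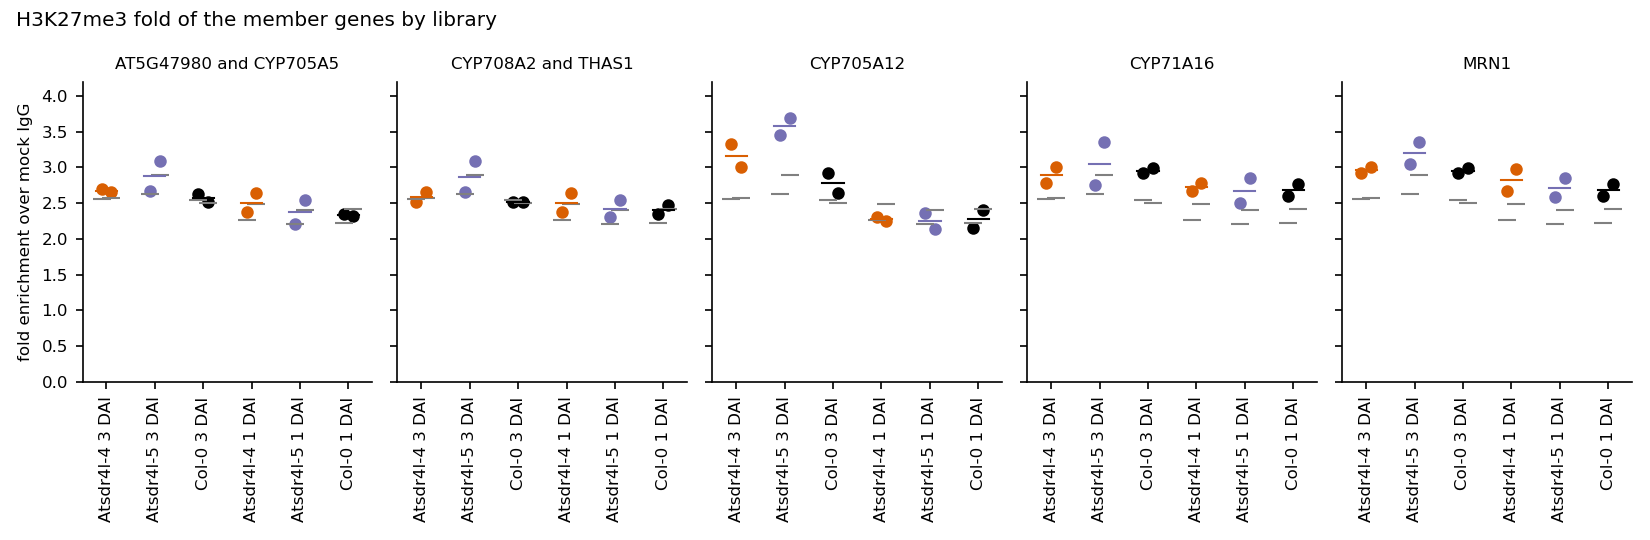
Fold enrichment over mock IgG (y axis) of the member genes in each library (points, 2 per group), with the group mean (coloured line) and the median of all tested genes in the same library (grey dash). CYP705A12 runs from 2.65 to 3.69 at 3 DAI and from 2.14 to 2.40 at 1 DAI, and the days overlap for the other members.

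The change between days was tested with limma on the log2 fold of the 6168 genes covered over at least 50% in all 12 libraries, after centring each library on its median gene. CYP705A12 rose by 0.31 on the log2 scale (SE 0.051, adjusted p = 0.000786), the only one of the 7 members past the threshold of 0.05. Of all tested genes 1049, or 17.0%, were higher and 1102, or 17.9%, were lower. A count of 1 higher member among 7 was thus not above the background share. The median over the members was -0.021, against -0.0099 over all tested genes. THAS1 and CYP708A2 gave -0.052 (SE 0.030, adjusted p = 0.201), AT5G47980 and CYP705A5 0.0024 (SE 0.034, adjusted p = 0.965). CYP71A16 gave -0.033 (SE 0.036, adjusted p = 0.509) and MRN1 -0.021 (SE 0.027, adjusted p = 0.581). For these 6 genes the SEs were 0.027 to 0.036, and a change as large as that of CYP705A12 lay outside the error. This holds for the fold averaged over their whole peaks, which ran well beyond each gene. A change confined to 1 gene within such a peak could not be told from these values.

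Centring sets what counts as a change. Before it the median log2 difference over all tested genes was 0.16 higher at 3 DAI than at 1 DAI. Without centring all 7 members were higher at 3 DAI, by 0.12 to 0.48, and 4 passed the threshold, AT5G47980, CYP705A5, CYP705A12 and MRN1. This was the case for 56.4% of the tested genes, or 3477, while 86 were lower. CYP705A12 thus rose above the shift shared by the marked genes, and no difference from that shift was detected for the other 6 members.

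By genotype, CYP705A12 rose by 0.35 in Atsdr4l-4 (SE 0.089, adjusted p = 0.0288) and by 0.41 in Atsdr4l-5 (SE 0.089, adjusted p = 0.0154), and its difference in Col-0 was 0.16 (SE 0.089, adjusted p = 0.273). The difference between genotypes was itself tested and was not past the threshold. The change in Atsdr4l-4 exceeded that in Col-0 by 0.19 (SE 0.13, adjusted p = 0.849) and that in Atsdr4l-5 by 0.24 (SE 0.13, adjusted p = 0.994).

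The fold given for CYP705A12 is that of the whole peak over it, and the width of this peak differed between libraries. In the 6 libraries where this peak was under 4 kb wide, it had 3.33, 3.45 and 3.69 at 3 DAI, all of Atsdr4l, against 2.30, 2.36 and 2.40 at 1 DAI. In the 4 libraries where it was about 5 kb wide, it had 2.65 at 3 DAI, of Col-0, against 2.25, 2.14 and 2.16 at 1 DAI. In the other 2, both at 3 DAI, a peak of 42.7 or 42.3 kb joined it to the rest of the cluster, and its fold of 3.00 or 2.92 was that of the whole cluster. At 3 DAI the narrow peaks were all of Atsdr4l and the 5 kb peak was of Col-0, so width and genotype cannot be told apart there, and the part of peak width in the change was not tested. Without the 2 libraries with the joined peak, an alternative chosen after seeing the data, the log2 change was 0.31 (adjusted p = 0.00297), and with each library left out in turn it was 0.26 to 0.35 (adjusted p 0.000377 to 0.00392).

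**Figure D4:**
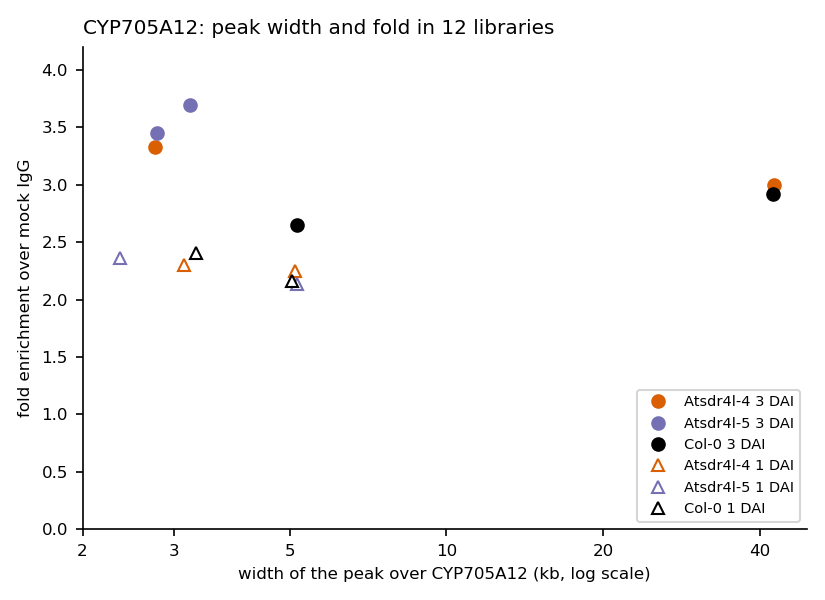
Fold enrichment of the peak over CYP705A12 (y axis) against the width of that peak (x axis, kb, log scale) in the 12 libraries, filled circles at 3 DAI and open triangles at 1 DAI. Among peaks under 4 kb the 3 DAI libraries, all of Atsdr4l, sit at 3.33 to 3.69 and the 1 DAI libraries, of all 3 genotypes, at 2.30 to 2.40.

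No member passed the threshold between a mutant allele and Col-0. At 3 DAI the largest difference was again of CYP705A12, 0.23 in Atsdr4l-5 (SE 0.089, adjusted p = 0.345; unadjusted p = 0.0215) and 0.16 in Atsdr4l-4 (SE 0.089, adjusted p = 0.823). The other members differed from Col-0 by -0.057 to 0.034 for Atsdr4l-4, against -0.086 to 0.060 for Atsdr4l-5. At 1 DAI all 7 lay between -0.032 and 0.071 for Atsdr4l-4, and for Atsdr4l-5 between -0.0088 and 0.034. Few genes passed anywhere in these comparisons of peak folds over genes. The study's own test, on regions and read counts, reported many regions of differing H3K27me3 in the mutants. The gene counts here are of another measure and do not bear on those regions. At 1 DAI limma called 4 genes (0.0649%) for Atsdr4l-4 and 3 (0.0486%) for Atsdr4l-5. At 3 DAI it called 1 (0.0162%) for Atsdr4l-4 and 0 (0%) for Atsdr4l-5, where 666 genes had an unadjusted p under 0.05.

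Other triterpene loci were set beside these clusters. Of the 13 oxidosqualene cyclase genes of Arabidopsis, THAS1, MRN1 and 6 others (LAS1, LUP1, LUP5, PEN1, BARS1 and PEN3) were covered over at least 50% in all 12 libraries, against 17.8% of all protein-coding genes. CAS1, the cycloartenol synthase of sterol synthesis, had no peak in any library, and LUP2, BAS, CAMS1 and AT1G78500 were covered only in part, over at most 48.2%. THAS1 and MRN1 were covered over 100% in every library, as were LUP1, LUP5, PEN1 and BARS1. Median fold over the 12 libraries was 2.51 for THAS1 and 2.91 for MRN1, against 2.12 for PEN3, 2.38 for LAS1, 2.41 for LUP5, 2.82 for LUP1, 2.84 for BARS1 and 2.88 for PEN1. In the arabidiol and baruol region on chromosome 4, which holds PEN1 and BARS1, 11 of 13 protein-coding genes were covered in all libraries, and in the tirucalladienol region around PEN3 3 of 5 were, against the same 17.8%.

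Between days 3 of the 8 tested cyclase genes passed the threshold, none of them THAS1 or MRN1, against 34.9% of all tested genes in either direction, so this count is near the background. LUP1 rose by 0.094 (adjusted p = 0.0359), while LUP5 fell by 0.13 (adjusted p = 0.0122) and PEN3 fell by 0.17 (adjusted p = 0.00219). The median of the 8 was -0.047, against -0.0099 over all tested genes. In the arabidiol and baruol region 1 of 11 tested genes passed, against the same 34.9%, and this gene, CYP702A5, rose by 0.28 (adjusted p = 0.000130). PEN1 itself gave -0.082 (adjusted p = 0.0753). CYP702A5 was named after its values were seen.

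The P450 families of the members were marked unevenly, and their genes other than the members are named here after their values were seen. The share of all protein-coding genes covered in all 12 libraries was 17.8%. Of 24 CYP705A genes 8 were covered in all 12 libraries, CYP705A5 and CYP705A12 among them, and 12 had no peak in any library. The 8 covered genes included CYP705A1, CYP705A2, CYP705A3 and CYP705A4 of the arabidiol and baruol region. CYP705A12 was the only one of these 8 past the threshold between days, against 34.9% of all tested genes in either direction, so this count is not above the background. Of 3 CYP708A genes CYP708A2 and CYP708A3 were covered in all libraries, and CYP708A3 rose by 0.36 (adjusted p = 5.88e-05). Of 16 CYP71A genes 12 were covered in all libraries, 4 of which rose and 4 fell between days, against 17.0% and 17.9% of all tested genes, with CYP71A16 among the 4 that did neither. P450 genes in tandem often share 1 peak and so 1 value, as CYP71A22, CYP71A23 and CYP71A24 did with 0.18 each. The other CYP71A gene that rose, CYP71A25, lies beside them. Those that fell were CYP71A12 with its neighbour CYP71A13, and CYP71A19 with nearby CYP71A20, which had -0.20 each. The CYP71A counts of genes thus overstate the number of separate observations.

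**Figure D5:**
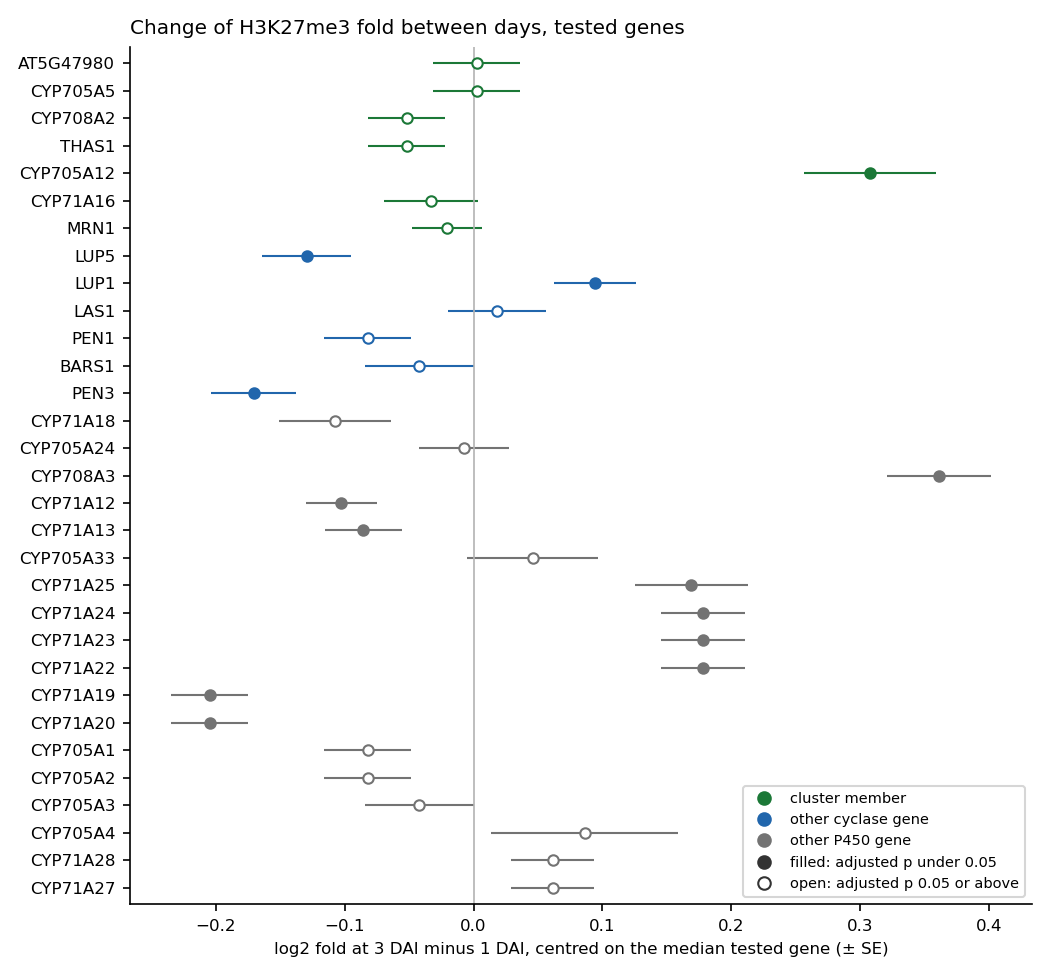
Difference in log2 fold, 3 DAI minus 1 DAI, centred on the median tested gene (points, bars ± SE from limma over 12 libraries) for the members (green), the other tested cyclase genes (blue) and the other tested genes of the P450 families (grey); filled points have an adjusted p under 0.05. CYP705A12 is at 0.31, and the other members lie between -0.052 and 0.0024.

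The genes most like each cluster were sought among tested genes over 50 kb away, by Pearson correlation of the centred log2 fold with the mean of the members over the 12 libraries. For the thalianol genes these were AT1G61080 (r = 0.877), a hydroxyproline-rich glycoprotein gene, and its neighbours AT1G61093 and AT1G61090 (r = 0.866 each), uncharacterized genes that share a peak. For the marneral genes they were AT1G23770 (r = 0.912) and AT3G17500 (r = 0.910), F-box genes, and AT3G17480 (r = 0.910), an F-box-associated domain gene. AT3G17500 and AT3G17480 lie close together on chromosome 3 and had the same r, so they are best read as 1 observation. The points are the same 12 libraries for every gene, and the highest of 6168 correlations is high by selection.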

How the data were processed

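H3K27me3 ChIP-seq was analysed from 12 deposited broad peak lists. Per the study's methods, the authors trimmed reads with fastp 0.23.4, aligned them to TAIR10 with Bowtie 2, kept a mapping quality over 10 with SAMtools 1.6, and called peaks in each library with MACS2 2.2.7.1 (broad, q of 0.1) against joined mock IgG. The deposited fold enrichment is a linear ratio averaged over each peak, and the deposited -log10 q value was used only as a filter. The lists hold peaks and not read counts, so the study's differential test was not used here.

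Peaks were laid on RefSeq TAIR10.1, and no peak ran past the end of its chromosome. A gene's fold was the mean of its peaks weighted by overlap, on the log2 scale with no pseudocount. limma 3.58.1 (R 4.3.3; group means, trend, Benjamini-Hochberg over 6168 genes, threshold 0.05) was run on centred values, and exact two-sided permutation tests on lengths with Python 3.11.15 and numpy 2.4.6. The code was tested on simulated data. Genes named are the members, genes within 10 kb, the listed cyclases and the 3 genes most like each cluster, and any other gene, the P450 family genes among them, was named after its values were seen. Members, lists and motifs were chosen with earlier results of these data known. Alternatives were no centring, coverage of 80% or any overlap, -log10 q of at least 5, 2-fold peaks, the highest fold, joining within 500 bp, each library left out and a replicate block. P450 family members were taken by their annotated names. The mock IgG libraries and the other experiments of the series were not analysed here.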

Additional observations from a re-analysis of the deposited data

Results flagged for a closer look

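Among the 22 sets of 4 Atsdr4l libraries examined (covered length, domain length and member fold on each day), 3 held a library far from the other 3. Dixon's criterion flags about 1 in 20 sets of independent values by chance, a rate that does not hold for values shared by genes in 1 peak or capped at the length of the span. The fold of AT5G47980 and that of AT5G47990 (CYP705A5) were both 3.09 in Atsdr4l-5 3 DAI replicate 2, against 2.66 to 2.69 in the other 3 Atsdr4l libraries at 3 DAI. These are 1 observation, since both genes lie in the same peak, and that library's median fold over all tested genes was 2.90, against 2.56 to 2.63 in the other 3. The covered length of the thalianol span was 31794 bp in Atsdr4l-5 1 DAI replicate 1, which had the break between CYP705A5 and CYP708A2, against 32819 bp, the whole span and so the highest possible value, in the other 3 Atsdr4l libraries at 1 DAI. That library also covered the least of the nuclear genome, 21.3 Mb.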

How the results depend on the processing

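The rise of CYP705A12 kept its direction and its side of the threshold under every alternative run (0.26 to 0.48), and no member passed between genotypes under any. Without centring, 3477 genes were higher and 86 lower between days, and 22 and 9 genes were called at 1 DAI and 11 and 71 at 3 DAI for Atsdr4l-4 and Atsdr4l-5. There CYP708A2 and THAS1 turned to 0.12, CYP71A16 to 0.14 and MRN1 to 0.15. With any overlap AT5G47980 and CYP705A5 turned to -0.0086, without the 2 joined-peak libraries to -0.00049, and with single libraries left out they ranged from -0.020 to 0.025; these are values near 0 with no call in the centred fits. Counts for Atsdr4l-4 were 2 at 1 DAI and 0 at 3 DAI with 80% coverage, and 0 and 0 with -log10 q of at least 5. For Atsdr4l-5 at 1 DAI the count was 5 with any overlap. Without the joined-peak libraries the counts at 3 DAI were 2 for Atsdr4l-4 and 1 for Atsdr4l-5. The cause of these moves was not tested.

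With single libraries left out, called genes ranged from 0 to 7 and 2 to 12 at 1 DAI and from 0 to 8 and 0 to 9 at 3 DAI for Atsdr4l-4 and Atsdr4l-5. The thalianol covered length in Atsdr4l minus Col-0 ranged from -162 to 839 bp and the domain length from -590.0 to 46.5 bp. The marneral covered length at 3 DAI minus 1 DAI ranged from -361 to 1515 bp, and the domain length from -280.5 to 230.5 bp, and for Atsdr4l minus Col-0 from -487 to 32.1 bp. None of these length differences passed the threshold.

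Deviations of same-numbered libraries, taken after centring, correlated at -0.313 to 0.383 over 15 pairs of groups, with no common sign. Centring removes a shift of a whole library, so these values cannot show one shared by replicate number. At 1 DAI replicate 2 had the higher median log2 fold in Atsdr4l-4, Atsdr4l-5 and Col-0 (1.31, 1.26 and 1.27, against 1.17, 1.14 and 1.15). At 3 DAI this held for both alleles (1.364 and 1.534, against 1.358 and 1.393) but not for Col-0 (1.32 against 1.35). With the replicate block 1089 genes were higher and 1124 lower between days, CYP705A12 stayed at 0.31 (limma, adjusted p = 0.000179), and 2 genes were called for Atsdr4l-5 at 3 DAI; sign flips of the 6 pairs gave exact p of 0.219 to 0.938 for the lengths between days. Precision is limited by 2 libraries per group and by peak lists that hold no depth.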
